A study of Mus musculus with 20 samples.

Results

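The effect of the DOT1L inhibitor SGC0946 was measured in mouse macrophages that had also been given GW3965, a synthetic agonist of the liver X receptors (LXR). The comparison used 6 of the 20 poly(A) RNA-seq libraries of the study. In 3 libraries, bone marrow-derived macrophages from C57BL/6 mice had grown for 7 to 8 days with 15% L929-conditioned medium as a source of growth factor and with 1 µM SGC0946, and in the other 3 with the solvent DMSO in its place. All 6 cultures then received 2 µM GW3965 for 17 h. Libraries were assigned by their labels, and each arm held cells of the same 3 animals (mouse 1, 2 and 3), so that every inhibited culture had a DMSO culture from the same mouse. The other 14 libraries, used here for reference, came from unstimulated cells (4 DMSO and 4 SGC0946) and from cells given 10 ng/mL lipopolysaccharide (LPS) for 3 h (3 DMSO and 3 SGC0946). The macrophages were primary cells differentiated in culture, and the inhibitor was present while they differentiated, so an effect on differentiation and an effect on mature cells cannot be told apart.

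DOT1L is the methyltransferase that adds the histone mark H3K79 methylation, found along the bodies of transcribed genes, and SGC0946 occupies its cofactor pocket. LXR alpha (Nr1h3) and LXR beta (Nr1h2) are sterol-sensing nuclear receptors. When bound by an agonist they raise cholesterol efflux transporters and, through Srebf1, fatty acid synthesis. SREBP2 (Srebf2) works in the opposite direction to cholesterol excess and drives the sterol synthesis enzymes. Macrophages in artery walls take up lipoprotein cholesterol and become foam cells, which is why both axes are followed in studies of atherosclerosis.

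Each of the 6 libraries held between 8499731 and 13105331 counts over the gene table, which limits the precision of genes with few counts. Macrophage genes were high in every library of both arms: Csf1r lay between 1530 and 2120 CPM (counts-per-million), Adgre1 between 883 and 1090 CPM and Cd68 between 1770 and 2020 CPM. These markers, the list members given below by their counts alone, and a few further genes named as additional were chosen after their values were seen. The deviation between libraries of 1 arm, as chi-square per gene, was 4.24 to 6.24 among the DMSO libraries. It was 10.93 and 14.37 for the pairs that included mouse 2 of the inhibited arm, against 6.16 for the pair without it, so this library stood apart. The inhibitor binds the enzyme, and the Dot1l transcript was at 72.5, 63.8 and 73.2 CPM with DMSO and at 62.9, 45 and 78.3 CPM with SGC0946. The groups overlapped (log2 fold change -0.17 ± 0.15 SE, edgeR adjusted p = 0.607). This does not show that the transcript was unchanged, and its level is no check of the labels. The titles of the 3 DMSO libraries, and of none of the 3 inhibited ones, carry the word reanalyzed. What it refers to is not given in the sources used here, and within this comparison it cannot be told apart from the inhibitor.

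SGC0946 changed 437 of the 12013 genes tested (3.64%) in GW3965-treated macrophages at an adjusted p under 0.05 in the quasi-likelihood test of edgeR (Benjamini-Hochberg adjusted). The fold changes are on the log2 scale with the standard error (SE) of the fit. The p-values rest on the spread between libraries within the 6 groups of all 20 libraries. The groups share animals, and this fit has no term for the mouse. It therefore takes cultures of the same animal in different groups as independent. Of the 437, 269 genes were higher with the inhibitor (2.24% of genes tested) and 168 were lower (1.40%). The groups of 3 libraries did not overlap for 433 of the 437, beside 20.3% of all genes tested. The change was 2-fold or more for 151 genes (1.26%), made up of 133 of the higher genes (1.11% of genes tested) and 18 of the lower genes (0.150%). When the mouse was included as a block, 703 genes passed (5.85% of genes tested), 397 of them higher (3.30%) and 306 lower (2.55%), and 435 of the original 437 were among them. When the spread was estimated from the 6 libraries alone, without the block, 164 genes passed.

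Many of the genes that rose had been nearly silent, whereas those that fell had been expressed. Levels were read from the unstimulated DMSO libraries, which were not among those compared but entered the filter and the shared fit. There the median level was 4.99 CPM for the 269 higher genes and 44.2 CPM for the 168 lower genes, beside 23.4 CPM for all genes tested. Of the 133 genes raised 2-fold or more, 114 (85.7%) were below 5 CPM there, beside 21.4% of all genes tested. A gene with few counts in DMSO cells entered the test only if it reached the count minimum in some other group, so part of this difference comes with the filter. A nearly silent gene also has little room to fall, so genes called lower had to be expressed. How much of the difference in level these limits make up was not tested. The median genomic span was 35 kb for higher genes, 46.5 kb for lower genes and 22.6 kb for all genes tested. Among genes changed 2-fold or more the median span was 49.5 kb for higher genes and 20.8 kb for lower genes. The plot of the effect against expression level shows the tendencies in level and not those in span.

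**Figure D1:**
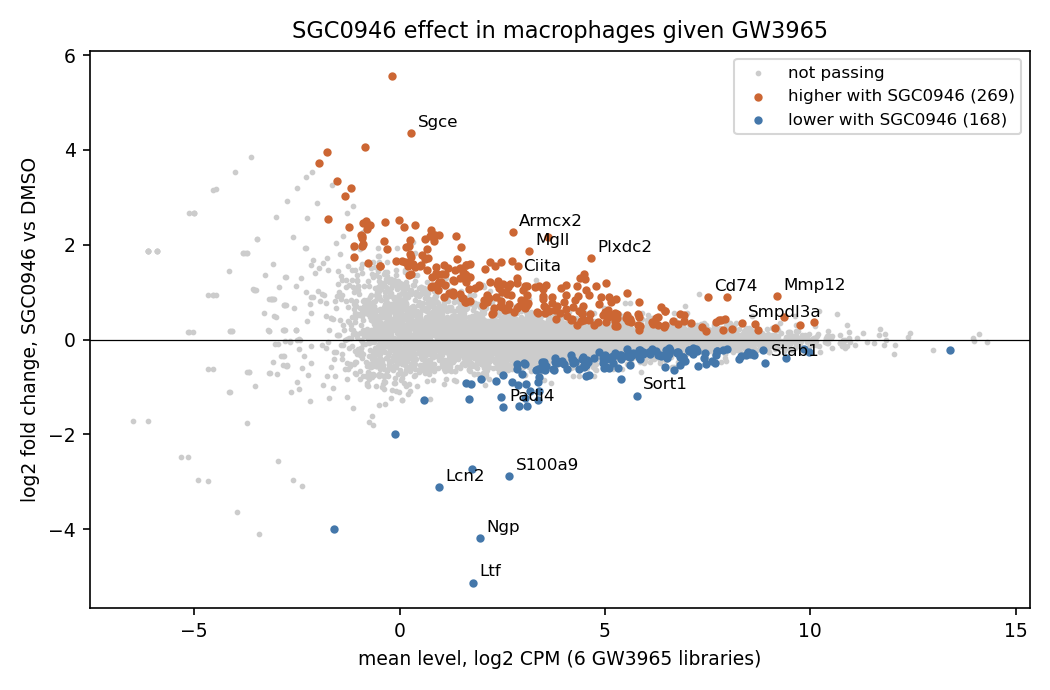
Effect of SGC0946 in GW3965-treated macrophages, as log2 fold change against DMSO (vertical axis), by mean level in log2 CPM (horizontal axis); each point is 1 gene, orange for the 269 that passed and were higher, blue for the 168 lower, grey for the rest. Most points above a log2 fold change of 2 lie at low levels, and the granule genes Ltf (-5.13) and Ngp (-4.18) have the lowest values among the genes that passed.

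The response to the agonist was present in both arms. Of the 23 LXR receptors and targets measured, GW3965 raised 14 in DMSO cells and 14 in SGC0946 cells (beside 1.35% and 1.32% of all genes). Abca1, the transporter that exports cholesterol to apolipoprotein A-I, rose by a log2 fold change of 1.80 ± 0.11 (SE) in DMSO cells and 1.72 ± 0.11 in SGC0946 cells. Abcg1, which exports cholesterol to HDL, rose by 1.72 ± 0.07 and 1.70 ± 0.07. Srebf1 rose by 1.49 ± 0.26 and 1.58 ± 0.26, and Mylip, which encodes a ubiquitin ligase, rose by 1.60 ± 0.12 and 1.74 ± 0.12. The stearoyl-CoA desaturase Scd1 rose by 2.42 ± 0.20 and 2.67 ± 0.21. The difference between the arms was -0.08 ± 0.16 for Abca1, -0.02 ± 0.10 for Abcg1 and 0.24 ± 0.29 for Scd1, and none passed (edgeR adjusted p = 1 for each), which does not show that the responses were equal.

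**Figure D2:**
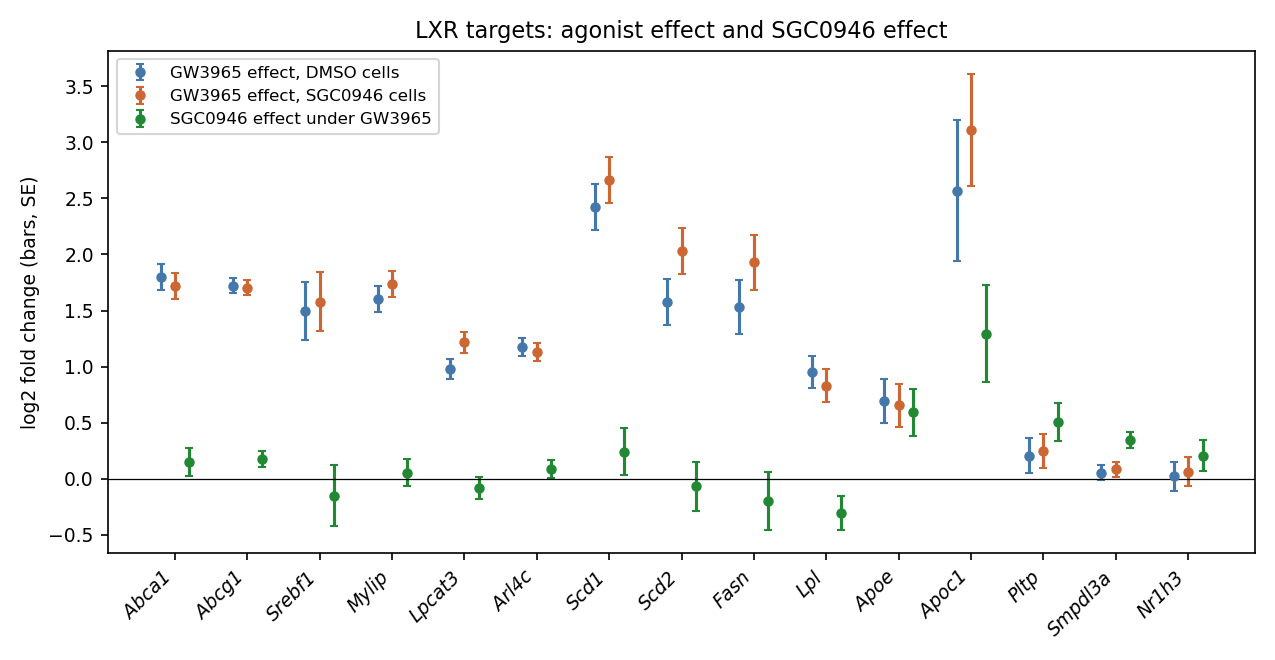
Log2 fold changes with SE bars for 15 LXR receptors and targets: the GW3965 effect in DMSO cells (blue, 3 libraries against 4), the GW3965 effect in SGC0946 cells (orange, 3 against 4) and the SGC0946 effect under GW3965 (green, 3 against 3). Abca1, Abcg1, Srebf1, Mylip and Scd1 rose in both arms, and the inhibitor effect on each lay between -0.15 and 0.24.

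With the agonist present, 1 of the 23 LXR genes rose with SGC0946 and none fell (beside 2.24% and 1.40% of all genes), so the share was near the background. The median log2 fold change of the list was 0.115, beside 0.000745 for all genes tested, and 0.0712 without mouse 2 of the inhibited arm. The gene that rose was Smpdl3a, which encodes a secreted phosphodiesterase. It was at 318, 272 and 261 CPM with DMSO and 393, 347 and 340 CPM with SGC0946, so the groups did not overlap (0.34 ± 0.07 SE, edgeR adjusted p = 0.00716). The log2 ratio within mouse 1, 2 and 3 was 0.31, 0.35 and 0.38. Smpdl3a was not itself raised by GW3965 in these cells (0.05 ± 0.07 with DMSO). Its adjusted p was 0.0517 without mouse 2 of the DMSO arm, 0.06 without mouse 3 of that arm and 0.0527 without mouse 1 of the inhibited arm.

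The ranges of the 2 efflux transporters overlapped between the arms. Abca1 stood at 2285, 2327 and 2457 CPM with DMSO and at 2189, 3137 and 2511 CPM with SGC0946 (0.15 ± 0.12, adjusted p = 0.598). Abcg1 stood at 1356, 1278 and 1252 CPM and at 1481, 1595 and 1322 CPM (0.18 ± 0.07, adjusted p = 0.21). Both transporters were highest in the inhibited library of mouse 2. The receptors did not pass either: Nr1h2 changed by -0.11 ± 0.06 (adjusted p = 0.402) and Nr1h3 by 0.20 ± 0.14 (adjusted p = 0.499).

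Apoe and Pltp were higher in every inhibited library than in any DMSO library but did not pass. Apoe, the main apolipoprotein secreted by macrophages, was at 1035, 927 and 876 CPM with DMSO and 1227, 1955 and 1105 CPM with SGC0946 (0.59 ± 0.21, edgeR adjusted p = 0.13). Pltp, the phospholipid transfer protein, was at 663, 627 and 658 CPM and at 765, 1161 and 837 CPM (0.51 ± 0.17, adjusted p = 0.103). Pltp shares 21% of its exon bases with Ctsa, so its counts may include reads of that gene. For both genes the groups did not overlap, and mouse 2 was far above mouse 1 and mouse 3. Apoc1, a small apolipoprotein with few counts, did not pass (log2 fold change 1.29 ± 0.43, adjusted p = 0.11). It passed with the mouse as a block (0.0455) and without mouse 3 of the inhibited arm (0.0304). In the other 5 fits with a library left out Apoc1 did not pass (0.0917 to 0.693, the highest without mouse 2 of the inhibited arm). DESeq2 (0.213) and limma-voom (0.184) did not call it either.

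The sterol synthesis list had a median below the DMSO level in all 3 inhibited libraries, yet few of its genes passed the test under the agonist. Of 28 genes of the sterol synthesis and SREBP2 list that were measured, 25 had a log2 fold change below 0 and the median was -0.38, beside 0.000745 for all genes. Only Insig1 and Idi1 passed (2 lower, none higher, beside 1.40% of all genes lower), and 6 passed as lower with the mouse as a block (beside 2.55%), among them Idi1, Insig1, Srebf2, Sqle and, as an additional gene, Mvd. The difference was unequal between mice. Relative to the DMSO mean the median of the list was -0.22 in mouse 1, -0.76 in mouse 2 and -0.22 in mouse 3, and without mouse 2 of the inhibited arm the median was -0.23 and no member passed. In unstimulated cells 18 of the 28 passed as lower (median -0.56, beside 4.18% of all genes), with 4 libraries per arm. No list member passed the test of the difference between the 2 conditions.

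Insig1 encodes a sterol-regulated anchor that holds the SREBP escort protein in the endoplasmic reticulum. It was at 169, 198 and 185 CPM with DMSO and at 137, 108 and 131 CPM with SGC0946, without overlap (-0.55 ± 0.15, edgeR adjusted p = 0.0439). Leaving out any 1 of the 6 libraries took it past the threshold, to between 0.0573 and 0.193. Idi1, the isopentenyl diphosphate isomerase, had few counts: 28, 24 and 30 with DMSO and 13, 5 and 11 with SGC0946 (-1.28 ± 0.30, adjusted p = 0.0207), and 10.7% of its exon bases are shared with Gm48574. Its adjusted p rose to 0.0508 without mouse 2 of the DMSO arm, 0.0868 without mouse 3 of that arm and 0.132 without mouse 2 of the inhibited arm.

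The regulator Srebf2 was at 196, 193 and 196 CPM with DMSO and at 151, 132 and 178 CPM with SGC0946 (-0.34 ± 0.10, adjusted p = 0.0554, or 0.0217 with the mouse as a block). Squalene epoxidase, Sqle, was at 114, 125 and 128 CPM and at 91.2, 56.8 and 97.5 CPM (-0.58 ± 0.20, adjusted p = 0.118, or 0.0399 with the block). In both of these genes every inhibited library was below every DMSO library, with mouse 2 the lowest. The 10 enzymes from lanosterol to cholesterol all had a log2 fold change below 0 (median -0.45), and none passed in either fit.

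Fatty acid synthesis showed smaller differences. Of 22 genes of fatty acid synthesis and desaturation measured, 18 had a log2 fold change below 0 (median -0.14, and -0.0621 without mouse 2 of the inhibited arm) and 2 passed as lower, beside 1.40% of all genes. Acss2, which makes acetyl-CoA from acetate, was at 17.1, 19.4 and 17.3 CPM with DMSO and at 13.9, 12.2 and 13.3 CPM with SGC0946 (-0.45 ± 0.09, edgeR adjusted p = 0.0077). Acsl3, a long-chain acyl-CoA synthetase of lipid droplets, was at 126, 146 and 143 CPM and at 106, 92.2 and 106 CPM (-0.45 ± 0.13, adjusted p = 0.0468). Neither pair of groups overlapped, but without mouse 2 of the inhibited arm neither gene passed (0.0547 and 0.186). Acss2 was also lost without mouse 2 of the DMSO arm (0.0552), and Acsl3 was lost whichever library was left out (0.0565 to 0.186). The fatty acid elongase Elovl6 passed as lower with the mouse as a block (-0.85 ± 0.27, adjusted p = 0.0885 without it and 0.0381 with it). The agonist-responsive genes of this pathway, Fasn (-0.20 ± 0.26), Scd1 (0.24 ± 0.21) and Scd2 (-0.07 ± 0.22), had adjusted p of 0.769, 0.627 and 0.929.

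Of 21 genes of lipid uptake, storage and hydrolysis, 1 rose and none fell (median -0.03, and -0.0652 to 0 with 1 library left out), beside 2.24% and 1.40% of all genes. Mgll (chr6:88724412-88828360) encodes monoacylglycerol lipase, the enzyme that releases the last fatty acid of a triglyceride and breaks down the endocannabinoid 2-arachidonoylglycerol. It had the smallest p of the higher genes with a mean of at least 5 CPM in the inhibited arm. It was at 3.28, 3.85 and 4.39 CPM with DMSO and at 11.6, 15.6 and 14.7 CPM with SGC0946 (1.87 ± 0.19, edgeR adjusted p = 7.11e-06). The lowest inhibited library was well above the highest DMSO library.

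The most firmly raised genes covered several functions. Armcx2 (chrX:134804142-134809221), an X-linked armadillo repeat gene, was at 1.61, 2.56 and 2.87 CPM with DMSO and at 9.17, 12.3 and 11.9 CPM with SGC0946 (2.26 ± 0.24, edgeR adjusted p = 9.51e-06). Slc18b1, a vesicular polyamine transporter, was at 2.81, 2.74 and 2.53 CPM and at 6.68, 9.75 and 8.96 CPM (1.64 ± 0.18, adjusted p = 1.71e-05). Clec7a (chr6:129461591-129472785), the beta-glucan receptor Dectin-1, was already well expressed and went from 190, 167 and 166 CPM to 296, 367 and 315 CPM (0.90 ± 0.11, adjusted p = 3.66e-05). In these 3 genes the arms were clearly apart and mouse 1 was the lowest inhibited library. The VEGF receptor gene Kdr was at 15.4, 16.2 and 20.4 CPM and at 37.4, 34.1 and 42.4 CPM (1.13 ± 0.15, adjusted p = 0.000144). Sfmbt2, a polycomb-group gene, changed by 1.5 ± 0.19, the adenylyl cyclase gene Adcy3 by 0.95 ± 0.11, the tetraspanin gene Tspan7 by 1.63 ± 0.21, the cytochrome P450 gene Cyp2j6 by 1.06 ± 0.14, Mamdc2 by 1.28 ± 0.16 and Nynrin by 1.12 ± 0.14, with adjusted p between 3.82e-05 and 9.59e-05. Nynrin shares 56.5% and Adcy3 24.3% of annotated exon bases with another gene, and since the counting is not stated to use strand their counts may include reads of those genes.

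Among genes that passed without overlap and had a mean of at least 5 CPM in the inhibited arm, the largest increases were in Armcx2, Ppp1r9a, Mgll, Plxdc2 and Adam22. Armcx2 and Mgll were below that level in every DMSO library. Ppp1r9a, which encodes the actin-binding protein neurabin, was at 3.82, 5.56 and 4.22 CPM with DMSO and at 14.1, 28.6 and 17.4 CPM with SGC0946 (2.15 ± 0.32, edgeR adjusted p = 0.000311). Plxdc2 was at 11.8, 9.92 and 14 CPM and at 32.9, 55 and 29 CPM (1.71 ± 0.24, adjusted p = 0.000172). For both genes the inhibited library of mouse 2 was the highest. Adam22, a catalytically inactive ADAM protein gene, changed by 1.67 ± 0.35 (adjusted p = 0.00716). It was lost without mouse 2 of the inhibited arm (0.0718) and without mouse 1 of the DMSO arm (0.0546).

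Sort1 (chr3:108283974-108361519) had the smallest p of the genes with a mean of at least 5 CPM in their higher arm. It encodes sortilin, a sorting receptor that carries proteins between the Golgi and the endolysosomal system. It was at 73.7, 80.1 and 73.3 CPM with DMSO and at 34.3, 31.4 and 34.4 CPM with SGC0946 (-1.18 ± 0.09, edgeR adjusted p = 1.83e-07). The spread within each arm was small against the distance between them. Padi4, which encodes an enzyme that converts arginine of histones and other proteins to citrulline, was at 8.37, 7.7 and 8.95 CPM and at 2.48, 3.02 and 3.83 CPM (-1.43 ± 0.17, adjusted p = 4.75e-05). Uck2, a pyrimidine salvage kinase, was at 10.7, 12.1 and 14.5 CPM and at 3.94, 3.8 and 6.45 CPM (-1.40 ± 0.18, adjusted p = 7.02e-05). The 12 lower genes with the smallest p were taken from those with a mean of at least 5 CPM with DMSO. Others among them were the channel Panx1 (-1.09 ± 0.15), the serotonin receptor Htr2b (-0.77 ± 0.11), the acyl-CoA thioesterase Acot7 (-0.75 ± 0.10), Mfsd6 (-0.58 ± 0.08) and Tmem154 (-0.45 ± 0.06), with adjusted p between 9.59e-05 and 0.000144.

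Genes of neutrophils and their precursors gave the largest decreases. Ltf (chr9:111019292-111042766), which encodes the iron-binding granule protein lactoferrin, was at 5.42, 6.33 and 8.45 CPM with DMSO and at 0.171, 0.259 and 0.101 CPM with SGC0946 (-5.13 ± 0.47, edgeR adjusted p = 2.65e-06). These are 255 counts against 6, a ratio of 36.8 with a 95% interval of 16.7 to 101 that covers counting error only. Ngp (chr9:110419808-110423012), a neutrophil granule protein gene, was at 6.23, 8.63 and 7.18 CPM and at 0.0857, 0.69 and 0.403 CPM (-4.18 ± 0.39, adjusted p = 2.65e-06), or 279 counts against 13. Lcn2, which encodes the siderophore-binding protein lipocalin 2, was at 3.35, 3.5 and 3.63 CPM and at 0.257, 0.518 and 0.403 CPM (-3.12 ± 0.30, adjusted p = 3.87e-06). In all 3 genes the inhibited libraries held few counts and lay far below the DMSO range.

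The calprotectin genes followed. S100a9 was at 8.77, 13.8 and 11.2 CPM with DMSO and at 1.46, 1.9 and 1.11 CPM with SGC0946 (-2.88 ± 0.30, edgeR adjusted p = 9.67e-06). Its partner S100a8 was at 3.48, 7.7 and 6.59 CPM and at 0.6, 1.55 and 0.403 CPM (-2.73 ± 0.38, adjusted p = 0.000195). Both remained called whichever library was left out, as did Ltf, Ngp and Lcn2. The list held 17 genes, of which 7 passed the count filter, 5 were lower and none was higher, beside 1.40% of all genes lower. The measured genes that did not pass were Mmp8 (-0.33 ± 0.12, adjusted p = 0.141) and, as an additional gene, the G-CSF receptor Csf3r (-0.26 ± 0.17, adjusted p = 0.47). Members with few counts in SGC0946 cells entered the test through the groups where they were high, so these counts describe the members that could be measured. Of the 10 members below the filter, Camp, a cathelicidin, had 6, 9 and 3 counts with DMSO and 0 in each inhibited library, and Cd177 had 5, 2 and 11 against 0, while Prtn3 had 4, 1 and 3 against 4, 8 and 1, Mpo had 0, 2 and 3 against 0, 1 and 4, and Cxcr2 had 4, 3 and 3 against 4, 1 and 3. Retnlg had 2, 5 and 1 counts against 0, 1 and 0. Elane, Ctsg, Fcnb and Ly6g had at most 3 counts in any library of either arm. The summed level of the list was 93.7 to 112 CPM with DMSO and 52.3 to 73.1 CPM with SGC0946. In RNA from whole cultures, fewer cells of a type and less RNA per cell cannot be told apart.

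**Figure D3:**
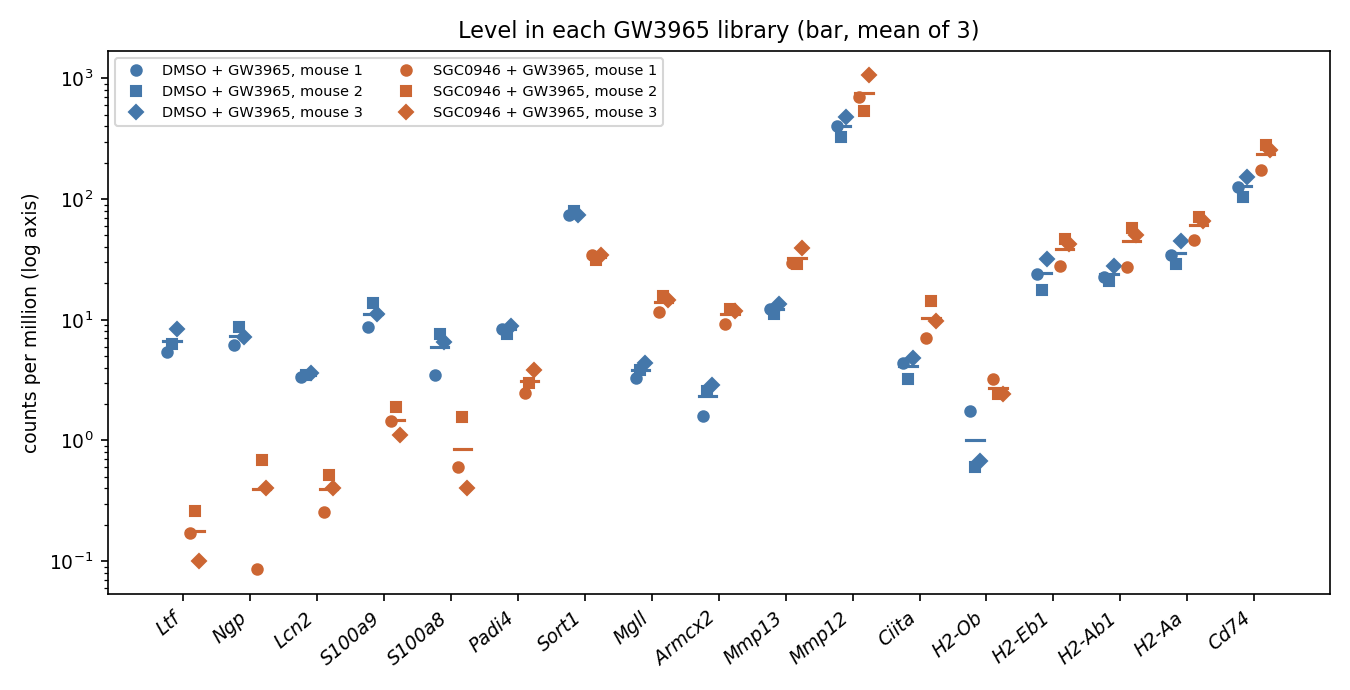
Level of 17 genes in each of the 6 GW3965 libraries, in CPM on a log axis; blue marks DMSO, orange SGC0946, the symbol gives the mouse and the bar the mean of 3. The granule genes fall by more than the spread between mice, Sort1 falls and Mgll, Armcx2 and Mmp13 rise without overlap, and among the class II genes H2-Eb1 and H2-Ab1 overlap between arms.

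Part of the MHC class II list rose with the inhibitor, as counted below. Class II molecules present peptides to CD4 T cells, and Ciita encodes the transactivator that turns on their genes through a shared promoter module. One element of the module, the Y box, is an inverted CCAAT sequence bound by NF-Y. Upstream sequences of 3 class II genes are shown because each of these genes passed with the mouse as a block and carries this element; each gives the 130 bases before the RefSeq start (GRCm38.p6), with the letters TGATTGG in capitals.
H2-Ob (chr17:34238775-34238904, plus strand): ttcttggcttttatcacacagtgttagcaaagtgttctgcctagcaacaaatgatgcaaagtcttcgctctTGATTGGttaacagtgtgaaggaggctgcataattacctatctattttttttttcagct
H2-Aa (chr17:34287824-34287953, minus strand): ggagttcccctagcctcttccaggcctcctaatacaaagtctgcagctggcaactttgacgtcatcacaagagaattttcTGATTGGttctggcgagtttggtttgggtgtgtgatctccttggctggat
H2-Eb1 (chr17:34305737-34305866, plus strand): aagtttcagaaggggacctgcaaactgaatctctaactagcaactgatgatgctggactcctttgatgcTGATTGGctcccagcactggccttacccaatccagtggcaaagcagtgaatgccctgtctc
The element begins 59 bases before the start of H2-Ob, 50 before that of H2-Aa and 61 before that of H2-Eb1. Of the 8 H2 genes of the list with a window of 300 bases in the table, 7 held TGATTGG on 1 strand or the other, beside 7.82% of all 32851 windows. A match describes the sequence and is no sign of binding in these cells.

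Ciita (chr16:10480014-10531064) was at 4.42, 3.25 and 4.81 CPM with DMSO and at 7.02, 14.2 and 9.77 CPM with SGC0946 (1.31 ± 0.25, edgeR adjusted p = 0.00418). The groups did not overlap, and Ciita remained called whichever library was left out (highest adjusted p 0.0362). Cd74, the invariant chain that guides class II molecules to the endosome, was at 127, 104 and 151 CPM and at 174, 279 and 257 CPM (0.89 ± 0.21, adjusted p = 0.0189). H2-Ob, a chain of the peptide-loading modulator, was at 1.74, 0.599 and 0.676 CPM and at 3.25, 2.42 and 2.42 CPM (1.35 ± 0.37, adjusted p = 0.0465). Cd74 was not called without mouse 1 or mouse 2 of the DMSO arm (0.0635 and 0.105) or mouse 2 or mouse 3 of the inhibited arm (0.0905 and 0.0504). H2-Ob was not called when any library other than mouse 1 of the DMSO arm was left out (0.0592 to 0.184).

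The antigen-binding chains were higher in every mouse, did not pass with all 6 libraries and no block, and passed with the mouse as a block. H2-Aa was at 34.2, 28.8 and 45 CPM with DMSO and at 45.9, 71.4 and 66.4 CPM with SGC0946 (0.76 ± 0.22, edgeR adjusted p = 0.0604, or 0.0161 with the block). H2-Ab1 was at 22.7, 21 and 28.1 CPM and at 27.5, 57.6 and 50 CPM (0.91 ± 0.28, adjusted p = 0.0824, or 0.0382 with the block). H2-Eb1 was at 23.8, 17.7 and 31.8 CPM and at 27.7, 46.6 and 42.2 CPM (0.66 ± 0.24, adjusted p = 0.148, or 0.0408 with the block). In each gene mouse 1 showed the smallest and mouse 2 the largest difference. Without mouse 1 of the inhibited arm and with no block, the adjusted p was 0.0324 for H2-Aa and 0.0244 for H2-Ab1. In the other 5 fits with a library left out neither passed (0.0519 to 0.236 for H2-Aa, 0.121 to 0.339 for H2-Ab1). For both genes the highest value was that without mouse 2 of the inhibited arm. H2-Eb1 passed in none of the 6 (0.0678 to 0.449). Of the 12 class II genes measured of 14 in the list, 3 rose and none fell (median 0.52), beside 2.24% of all genes higher, and 6 rose with the block, beside 3.30%. As additional genes, the subunits of the RFX complex that binds the same module, Rfx5 (-0.06 ± 0.08), Rfxank (0.05 ± 0.09) and Rfxap (0.08 ± 0.17), did not pass (adjusted p from 0.745 to 0.879). None of 7 costimulatory and coinhibitory ligands passed, the closest being Cd86 (0.38 ± 0.12, adjusted p = 0.0911).

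Among matrix metalloproteinases, which cut collagen, elastin and other matrix proteins, 3 rose and 1 fell, beside 2.24% of all genes higher and 1.40% lower. Mmp13, a collagenase, was at 12.4, 11.1 and 13.5 CPM with DMSO and at 29.6, 28.7 and 39.2 CPM with SGC0946 (1.39 ± 0.17, edgeR adjusted p = 4.75e-05). The log2 ratio was similar in the 3 mice at 1.24, 1.36 and 1.52. Mmp12, the macrophage elastase, was at 403, 330 and 482 CPM and at 696, 536 and 1059 CPM (0.92 ± 0.23, adjusted p = 0.029, or 9.13e-05 with the mouse as a block). Mice differed in their Mmp12 level in both arms in the same order, and the groups did not overlap. Without the block, Mmp12 was not called without mouse 1 or mouse 2 of the DMSO arm (0.0892 and 0.145) or mouse 3 of the inhibited arm (0.145). Mmp9, a gelatinase, was at 4.89, 4.7 and 5.58 CPM and at 2.4, 2.5 and 3.62 CPM (-0.84 ± 0.22, adjusted p = 0.0393), and it was called with 1 of the 6 libraries left out (mouse 3 of the inhibited arm) and with none of the other 5 (0.0751 to 0.162). Mmp25, a membrane-anchored protease, was near the detection limit, at 0.067, 0.0855 and 0.422 CPM against 1.03, 0.863 and 0.705 CPM (2.19 ± 0.50, adjusted p = 0.0155). It was not called without mouse 1 or mouse 2 of the DMSO arm (0.0937 and 0.0764) or mouse 1 of the inhibited arm (0.059). The median over the 14 measured proteases and inhibitors was 0.41, but 0.172 without mouse 3 and 0.654 without mouse 1 of the inhibited arm and 0.225 without mouse 1 of the DMSO arm, and none of the 4 inhibitors passed. Of 9 secreted matrix proteins measured, fibronectin (Fn1) rose, from 4, 1 and 10 counts to 17, 25 and 29 counts (2.43 ± 0.53, adjusted p = 0.0114). It was not called without mouse 1 (0.0672) or mouse 2 (0.063) of the DMSO arm.

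Inflammatory genes of the NF-kB programme did not pass in either direction: 0 of 26 measured, with a median of -0.01, in edgeR with and without the block. Tnf was at 6.9, 6.24 and 8.95 CPM with DMSO and at 6, 5.78 and 8.76 CPM with SGC0946 (-0.11 ± 0.20, adjusted p = 0.847), and Il1b was at most 2.03 CPM in the 6 libraries (-0.18 ± 0.55, adjusted p = 0.92). These cells had received no inflammatory stimulus. Of 30 type I interferon response genes, 28 had a log2 fold change above 0 (median 0.33, and 0.129 without mouse 1 of the inhibited arm) and 1 passed, beside 2.24% of all genes higher. That gene, Ifi44, was at 5.02, 2.14 and 3.97 CPM and at 15.8, 10.2 and 7.05 CPM (1.55 ± 0.30, edgeR adjusted p = 0.00425) and remained called whichever library was left out. The list's median relative to the DMSO mean was 0.68 in mouse 1, 0.21 in mouse 2 and 0.07 in mouse 3 of the inhibited arm, and in the DMSO arm it ran from -0.25 to 0.18. In unstimulated cells the list's median effect was -0.07. GW3965 itself lowered 12 of the 30 genes in DMSO cells and 3 in SGC0946 cells, beside 1.20% and 1.11% of all genes. It raised 1 in each arm, beside 1.35% and 1.32%, and the list's median agonist effect was -0.677 and -0.281. The inhibitor effect under GW3965 is thus read against DMSO cells in which part of the list was lowered. No member passed the test of the difference from unstimulated cells.

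Most macrophage identity genes did not pass. Of 25 identity genes, 3 rose and none fell (median 0.01), beside 2.24% of all genes higher, and the 3 were the chains of complement C1q. C1qb was at 940, 893 and 1031 CPM with DMSO and at 1146, 1282 and 1285 CPM with SGC0946 (0.37 ± 0.09, edgeR adjusted p = 0.0186). C1qa changed by 0.53 ± 0.13 (adjusted p = 0.0245) and C1qc by 0.31 ± 0.08 (adjusted p = 0.0275). None of the 3 passed without mouse 2 of the inhibited arm. Each was called with 2 of the 6 libraries left out in turn and not with the other 4 (highest adjusted p 0.104 for C1qb, 0.111 for C1qa and 0.149 for C1qc). Among 15 alternative activation markers (median 0), Clec7a rose, while Chil3 and Stab1 fell, beside 2.24% of all genes higher and 1.40% lower. Chil3, a chitinase-like secreted protein, was at 5.42, 4.19 and 3.97 CPM and at 1.8, 2.59 and 1.31 CPM (-1.24 ± 0.23, adjusted p = 0.00255). The scavenger receptor Stab1 was at 527, 590 and 537 CPM and at 392, 418 and 370 CPM (-0.49 ± 0.10, adjusted p = 0.00837, and 0.0529 without mouse 2 of the DMSO arm). The mannose receptor Mrc1 did not pass (-0.26 ± 0.09, adjusted p = 0.118). It passed with the block (0.0245) and without mouse 1 of the DMSO arm (0.0336), but not in the other 5 fits with a library left out (0.113 to 0.466). Of 13 C-type lectin receptors (median 0.21), Clec4d fell (-0.50 ± 0.10, edgeR adjusted p = 0.00446) and Clec7a rose, beside the same shares of all genes.

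Cell cycle genes had their lowest levels in 1 library. All 34 measured had a log2 fold change below 0 (median -0.34), and 1 passed, beside 1.40% of all genes lower. That gene was the replication regulator E2f2 (18.6, 21.2 and 21.3 CPM against 15.1, 10.6 and 13.9 CPM, -0.62 ± 0.14, edgeR adjusted p = 0.0171). It was not called without mouse 2 of the inhibited arm (0.109) or mouse 2 (0.0677) or mouse 3 (0.0648) of the DMSO arm. The median of the list relative to the DMSO mean was -0.24, -0.80 and -0.03 in mice 1, 2 and 3, and it was -0.125 for the effect estimated without mouse 2 of the inhibited arm. The same library held the lowest sterol list median and the highest class II list median, as the plot of list medians by library shows, and the part of this library's state in those results was not tested. None of 15 DOT1L complex and elongation genes, 21 lysosome genes or 20 stress response genes passed (medians -0.03, 0.03 and -0.02), except that 1 lysosome gene rose and 1 stress response gene fell with the block (beside 3.30% of all genes higher and 2.55% lower). Of 17 glycolysis genes 1 fell, beside 1.40% of all genes lower. It was the hexokinase Hk1 (142, 144 and 142 CPM against 110, 88.1 and 114 CPM, -0.46 ± 0.08, edgeR adjusted p = 0.00234).

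**Figure D4:**
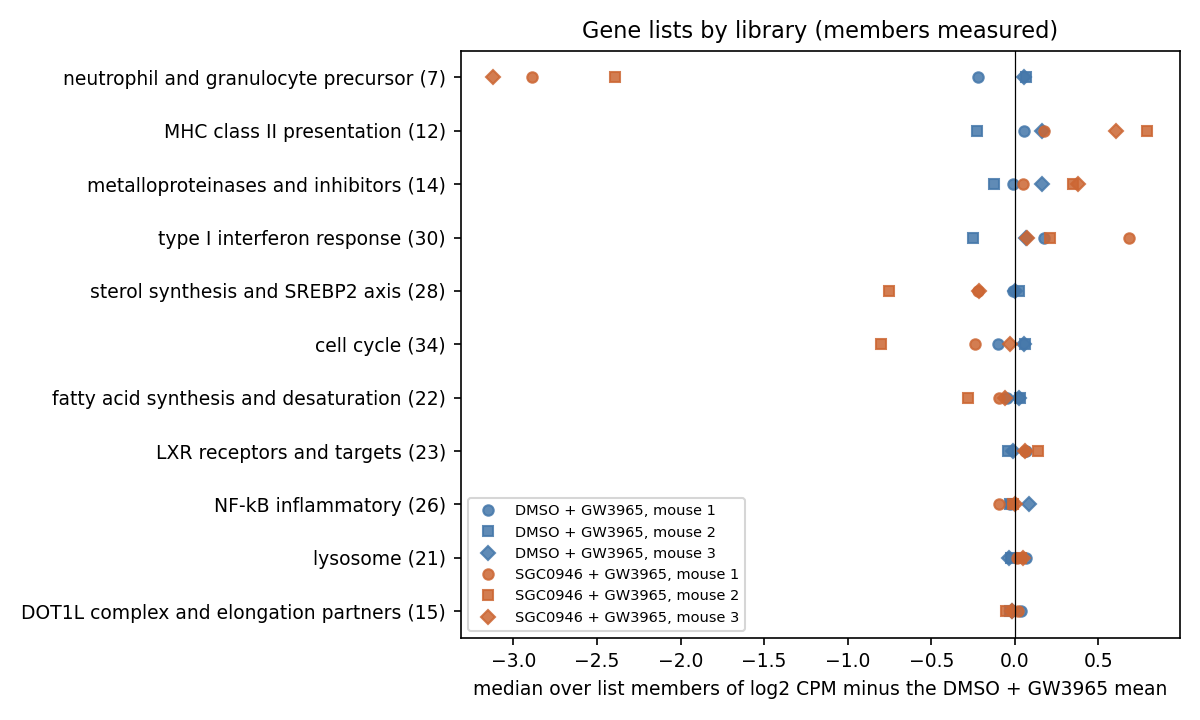
Median over the measured members of each gene list (number in brackets) of log2 CPM minus the mean of the DMSO + GW3965 libraries, for each of the 6 libraries; blue marks DMSO, orange SGC0946 and the symbol the mouse. Neutrophil genes lie between -3.12 and -2.39 in the inhibited libraries, and mouse 2 is the extreme inhibited library for the class II, sterol and cell cycle lists while mouse 1 is for interferon genes.

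Markers of other blood cells were few. Single members with counts in all libraries rose with the inhibitor: Cd22 (8.57, 8.72 and 8.78 CPM against 11.9, 14 and 17.1 CPM, 0.72 ± 0.13, edgeR adjusted p = 0.00184), Cd4 (8.51, 10.9 and 9.8 CPM against 15.6, 19 and 15.2 CPM, 0.78 ± 0.16, adjusted p = 0.00565) and Cd24a (26.9, 32.2 and 34.2 CPM against 64, 50.8 and 70.6 CPM, 0.99 ± 0.13, adjusted p = 0.000144). They were the only genes to pass among 2 B cell, 2 T and NK cell and 8 dendritic cell markers measured, beside 2.24% of all genes higher. Cd79b (log2 fold change 0.12, edgeR adjusted p = 0.836), Lck (0.09, 0.974), Itgax (0.45, 0.379), Batf3 (0.54, 0.412) and Xcr1 (-1.3, 0.49) were among those that did not pass. The defining B cell genes Pax5, Ebf1 and Blk had 0 counts in all 6 libraries, and Cd3e and Cd3d had 1 count in 1 DMSO library each. Klrb1c, a natural killer cell receptor gene, had 0 counts in each DMSO library and 3, 2 and 6 with SGC0946, and the B cell receptor component Cd79a had 0 in each and 1, 2 and 1. The summed level was 12.5 to 13.7 CPM with DMSO and 16.4 to 22.8 CPM with SGC0946 for the 10 B cell markers, and 8.91 to 11.2 CPM and 16 to 19.5 CPM for the 12 T and NK cell markers. Dendritic cell markers summed to 2670 to 2810 CPM and 2560 to 2750 CPM, erythroid markers to at most 0.863 CPM, and mast cell markers to 10.2 to 13.7 CPM and 13.5 to 30.2 CPM. The last range follows the stem cell factor receptor Kit (0.94 ± 0.26, adjusted p = 0.0465), whose groups overlapped and which was not called in 5 of the 6 fits with a library left out (0.0778 to 0.181). Stromal markers summed to at most 0.777 CPM. None of 4 megakaryocyte and platelet markers measured passed, and that list summed to 300 to 310 CPM with DMSO and 267 to 327 CPM with SGC0946.

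The effect of SGC0946 under the agonist was compared with its effect in the other conditions. Over the 12013 genes the log2 fold changes under GW3965 and in unstimulated cells had Pearson r = 0.67 and Spearman rho = 0.62. Against the effect under LPS these were 0.50 and 0.41. These values are across genes, which are not independent replicates, and the comparisons share no libraries but share animals. Of the 437 genes called under GW3965, 348 were called in the same direction in unstimulated cells, which is 79.6% of the 437 and 33.2% of the 1048 called there (8.72% of genes tested, 4.55% higher and 4.18% lower). Under LPS 227 were called in the same direction, which is 51.9% of the 437 and 26.5% of the 856 called there (7.13% of genes tested, 3.86% higher and 3.26% lower). In all 3 conditions 204 genes were called, all in the same direction. A total of 66 genes were called under GW3965 and in neither other condition, and 65 of these had the same sign in unstimulated cells.

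Whether the agonist altered the inhibitor's effect was tested gene by gene. No gene passed for GW3965 against unstimulated cells in edgeR (0 of 12013, smallest adjusted p 1). An unadjusted p under 0.05 was found for 291 genes (2.42%) in edgeR, 216 in DESeq2 and 293 in limma-voom, and no gene passed in those tools either. This test is the same as asking whether the agonist's effect differs between inhibited and DMSO cells. The smallest p belonged to Ltf, Plaat3 and Palm, none of which passed. Ltf fell by 5.13 under GW3965 and by 2.52 in unstimulated cells on the log2 scale (difference -2.61 ± 0.67, edgeR adjusted p = 1), at levels of 0.177 and 1.2 CPM with the inhibitor. Plaat3, a phospholipase and acyltransferase gene, had a difference of -0.77 ± 0.21 and Palm, which encodes paralemmin, of -0.90 ± 0.26 (edgeR adjusted p = 1 for both). Palm was called under GW3965 (4.42, 4.02 and 4.65 CPM against 2.14, 2.16 and 2.52 CPM, -0.94 ± 0.21, edgeR adjusted p = 0.0106), and its effect in unstimulated cells was -0.04 ± 0.15.

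Against LPS, 1 gene passed the test of the difference (0.00832% of genes tested), and 977 had an unadjusted p under 0.05 (8.13%). The gene was Lcn2. With GW3965 it fell by 3.12 on the log2 scale, and with LPS by 0.67, from 16.9, 17.8 and 19 CPM to 8.91, 13.6 and 11.3 CPM (difference -2.45 ± 0.36, edgeR adjusted p = 0.0114). Among DMSO cells the mean Lcn2 level was 17.9 CPM with LPS and 3.5 CPM with GW3965. Sort1 changed by -1.18, -1.20 and -1.17 under GW3965, in unstimulated cells and under LPS, and Armcx2 by 2.26, 2.36 and 2.53.

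**Figure D5:**
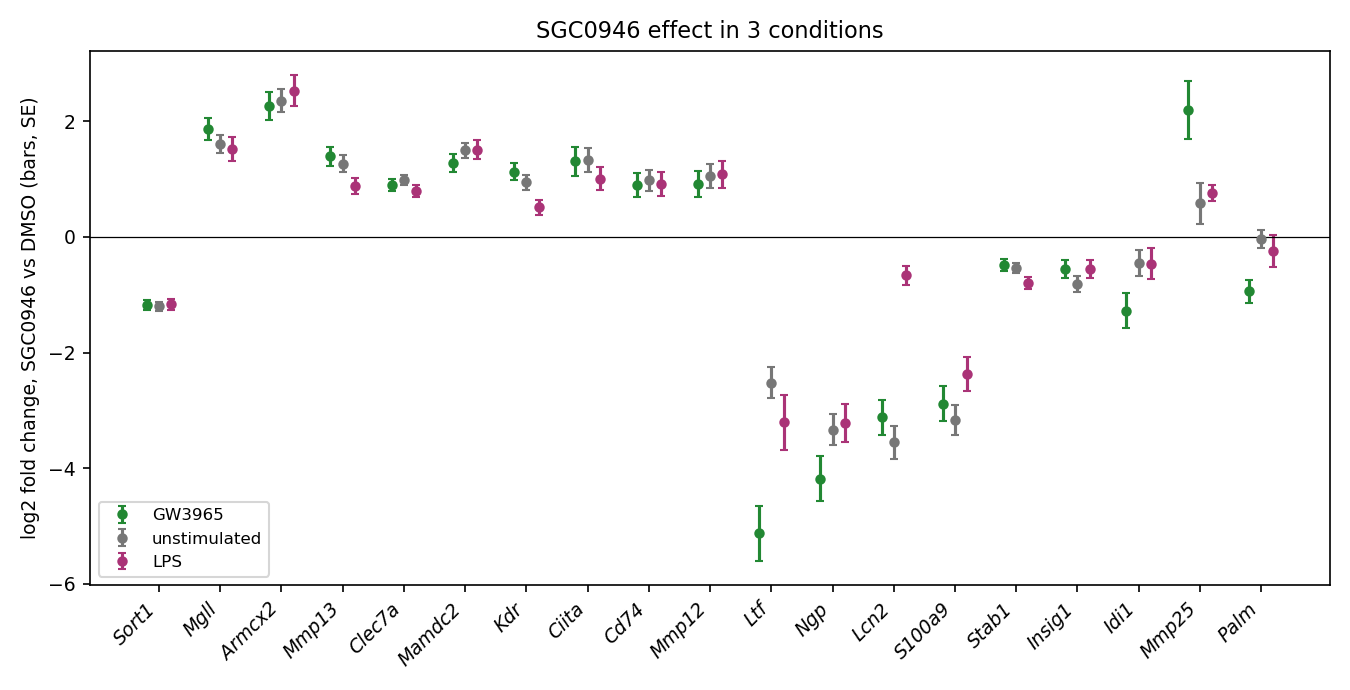
Log2 fold change of SGC0946 against DMSO with SE bars for 19 genes under GW3965 (green), in unstimulated cells (grey) and under LPS (purple). Sort1 and Armcx2 lie at nearly the same value in the 3 conditions, Lcn2 falls less under LPS (-0.67) than under GW3965 (-3.12), and the differences of Ltf and Palm between GW3965 and unstimulated cells did not pass the test.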

How the data were processed

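Poly(A) RNA-seq (KAPA mRNA HyperPrep, single-end 50 bp reads) was measured in 20 libraries of mouse bone marrow-derived macrophages. The authors aligned reads to mm10 with STAR 2.5.2b and used SAMtools 1.3.1, per the submitters' processing notes. How reads were counted, with which annotation and strand rule, is not given in the sources used here. Whole-number read counts make up the deposited table, for 35745 RefSeq transcripts. The deposited RPKM table served only to choose transcripts in an alternative. Symbols came from RefSeq (GRCm38.p6); 305 transcripts without one (1.17% of counts) were left out. Each of the 24342 symbols was represented by its most highly counted transcript, which keeps 57.3% of counts.

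The main test was edgeR 4.0.16 (R 4.3.3): genes filtered by filterByExpr with a count minimum of 10 (12013 kept), TMM factors, a quasi-likelihood fit over all 20 libraries and 6 groups (biological coefficient of variation 8.87%), contrasts for the inhibitor effect and for differences of effects, Benjamini-Hochberg adjustment and a threshold of 0.05. The script was tested on simulated data. CPM values use TMM. A list's median relative to the DMSO mean in a library uses log2 CPM with a prior count of 2. Alternatives were DESeq2 1.42.0, limma-voom (limma 3.58.1), other normalizations, filters, transcripts, samples and a replicate block. The deposited sample sheet gives the mouse of each library, and the samples were paired by it. Same-numbered GW3965 libraries deviated together (r = 0.43, 0.20 and 0.21). The values for different numbers (at most 0.03) are no separate evidence, since deviations from the group mean cancel within a group.

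The members and gene lists were chosen with earlier results of these data known. Genes named were the 12 with the smallest p and the 5 with the largest change in each direction. These had to be called, with groups not overlapping and a mean of at least 5 CPM in the higher arm. Also named were up to 5 per list, a fixed set of lipid, class II, granule and protease genes, and those leading each test of differences. SE are from the fit. Separate animals were used within each group, as labelled by mouse. Some genes are not reported here.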

Additional observations from a re-analysis of the deposited data

Results flagged for a closer look

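In edgeR's fit with all libraries and no block, Lcn2 was the 1 gene whose response to SGC0946 differed between GW3965 and LPS (-2.45 ± 0.36 SE, edgeR adjusted p = 0.0114). Other settings called other numbers of genes: 32 with DESeq2, 6 with no filter and 4 with the block. It was lower with SGC0946 in all 3 mice in both conditions. Over 24 alternatives the difference ran from -2.71 to -2.21 and the adjusted p, where given, from 0.00298 to 0.453; 17 passed and 6 did not. DESeq2 gave no adjusted p for Lcn2. It did not pass in limma-voom (0.0821), without mouse 1 (0.0685) or mouse 3 (0.0554) of the SGC0946 + GW3965 group, or without all libraries of mouse 1, 2 or 3 (0.131, 0.145 and 0.453). The inhibited GW3965 libraries held 3, 6 and 4 Lcn2 counts.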

How the results depend on the processing

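The number of genes called for SGC0946 under GW3965 lay between 381 and 575 under DESeq2, limma-voom, 2 other normalizations, both filters and another transcript choice (437 as reported). It was 703 (306 lower) with the replicate block, which holds the animal fixed, and 164 (101 higher, 63 lower) when only the compared groups entered the fit; the block with only the compared groups, chosen after seeing the data, gave 406. Leaving out 1 library or all libraries of 1 animal gave 136 to 454 genes (89 to 251 higher, 47 to 203 lower). It was 271 without mouse 2 of the inhibited arm and 260, 232 and 249 without mouse 1, 2 and 3 of the DMSO arm. The difference from unstimulated cells had 0 calls under every alternative run. The difference from LPS had 32 with DESeq2, 4 with library totals, 0 with limma-voom, 6 with no filter, 4 with the block, and 0 to 9 with libraries left out. Class II genes higher numbered 5 with no filter, 6 with the block and 5 with the block on the compared groups (0 to 4 with libraries left out). Sterol genes lower numbered 4 with DESeq2, 1 with library totals, 9 with no filter, 0 with the stricter filter, 6 with the block and 7 with the block on the compared groups (0 to 2 with libraries left out). Fatty acid genes lower numbered 1 with library totals, only the compared groups or the stricter filter (0 to 2 with libraries left out). The cause of these shifts was not tested. With libraries left out, the median of the HOXA and progenitor list ran from -0.306 to 0.0483 (the positive value without mouse 3 of the DMSO arm), and that of C-type lectin receptors from -0.032 (without mouse 2) to 0.382. Of 54 called genes named by the rule, 28 were called under all 19 settings and 36 with each single library left out; beyond those named beside their results, the block ended no call among the text's genes. Genes with few counts per library limit precision.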

Other observations

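Several groups outside the lists also moved; they were chosen after their values were seen, so their counts are descriptions. Of 14 antioxidant and iron-storage genes under NRF2, 5 fell with SGC0946 under GW3965, none rose and 9 did not pass (median -0.25), beside 1.40% of all genes lower. Those that fell were Gclm (-0.42 ± 0.11, edgeR adjusted p = 0.0312), a subunit of glutathione synthesis, the heme oxygenase gene Hmox1 (-0.30 ± 0.08, adjusted p = 0.0298), Prdx1 (-0.32 ± 0.08, adjusted p = 0.0264), Txn1 (-0.28 ± 0.08, adjusted p = 0.0457) and the ferritin heavy chain gene Fth1 (-0.22 ± 0.06, adjusted p = 0.0457). Hmox1 was at 412, 391 and 417 CPM with DMSO and at 324, 288 and 377 CPM with SGC0946, and the groups did not overlap. None of the 5 passed without mouse 2 of the inhibited arm. Besides Kdr, the VEGF receptor Flt1 (2.01 ± 0.50, adjusted p = 0.0257) and the ligand Angpt1 (1 count against 16 over the 3 libraries, adjusted p = 0.0427, 17.3% of exon bases shared with Gm17473) rose among 9 angiogenic receptors and ligands measured, beside 2.24% of all genes higher. Without mouse 2 of the inhibited arm, 2 of these 9 passed as higher.

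Neighbouring genes of an imprinted domain on chromosome 6 rose together from near silence. Sgce (chr6:4674350-4747204, GRCm38) went from 4 counts over the 3 DMSO libraries to 78 (a ratio of 22.5, 95% counting interval 8.45 to 84.7, edgeR adjusted p = 6.36e-05), and Peg10 (chr6:4747306-4760517) from 1 to 19 (adjusted p = 0.00716). Ppp1r9a lies further along the same stretch (chr6:4902872-5165661). On either side of them Casd1 (0.11 ± 0.08, adjusted p = 0.533), Pon3 (-0.05 ± 0.07, adjusted p = 0.805), Pon2 (0.09 ± 0.12, adjusted p = 0.77) and Asb4 (0.64 ± 0.36, adjusted p = 0.407) did not pass.

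Of the 168 lower genes, 5 are members of the gamma protocadherin cluster (Pcdhga5, Pcdhga10, Pcdhgb5, Pcdhgb7 and Pcdhgc4), with log2 fold changes between -0.58 and -0.54. These genes share their constant exons, so the same reads may be counted for each and the 5 calls are not separate measurements. Fkbp5, a glucocorticoid-responsive chaperone gene, was at 9.58, 10.7 and 12.1 CPM with DMSO and at 3.68, 2.5 and 6.24 CPM with SGC0946 (-1.40 ± 0.23, edgeR adjusted p = 0.00119). Bambi fell (-1.23 ± 0.19, adjusted p = 0.000419) while its processed pseudogene Bambi-ps1 rose (0.64 ± 0.16, adjusted p = 0.0248), a near-identical pair whose reads may be split between them.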
